A study of Mus musculus with 12 samples.

Results

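Pdx1, its antisense RNA Plut and 8 genes near them on mouse chromosome 5 were followed in RNA from livers in which an epigenome editor had been aimed at Pdx1. The 10 genes were Pdx1, Plut, Gm27033, Urad, Cdx2, Gsx1, Flt3, Usp12, Polr1d and Lnx2. They were taken by name for their place at or near Pdx1, and matched by symbol among the 50600 genes of the deposited tables. All 10 were found, and 31 genes of the tables lay within 500 kb of Pdx1.

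The 3 conditions were compared, each with 4 liver libraries of polyadenylated RNA. All mice were of the Rosa26-LSL-dCas9-p300 strain, about 8 weeks old at injection, and their livers were taken 2 weeks later. The Pdx1 gRNA group received adeno-associated virus (AAV.Cbh.gRNA) with a guide RNA aimed at Pdx1, at 1e+12 viral genomes per mouse through the tail vein. The control gRNA group received the same dose of virus with a control guide, and the PBS group received PBS and no virus. The strain carries at Rosa26 a nuclease-dead Cas9 fused to p300, an acetyltransferase of histones, behind a stop cassette (LSL) that Cre recombinase removes. The source of Cre, the guide sequences, the guide's target site and the sex of the mice are not stated in the sources used here. Whether every library is from a different mouse is not stated in the labels. The p-values set group differences against the spread between these libraries only, which may not be a spread between mice.

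Pdx1 encodes a homeobox transcription factor that is needed to form the pancreas and that drives insulin and other genes in the beta cell. It belongs with Gsx1 and Cdx2 to the ParaHox cluster, a group of homeobox genes that stayed side by side during animal evolution. In the adult, Pdx1 is used in pancreas and duodenum and Cdx2 in the intestine. Gsx1 is used in the developing brain, and the normal liver uses none of these genes. An editor of the p300 kind is brought by its guide to a chosen DNA site, where it adds acetyl marks to histones without cutting the DNA.

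The exon blocks showed how the transcripts next to Pdx1 lie relative to each other. Pdx1 (ENSMUSG00000029644.7, mm10 chromosome 5, 147269959 to 147275848, plus strand) had 2 exons of 689 and 1469 bases, around an intron of 3732 bases from 147270648 to 147274379. Plut (ENSMUSG00000092570.7, 147228596 to 147271521, minus strand), a noncoding RNA of the pancreatic islet, starts inside that intron and runs across the first Pdx1 exon and past the Pdx1 start. Of its 9 exon blocks, 2 with 428 bases lay inside the Pdx1 intron and 7 with 1641 bases lay 5′ of Pdx1, and it shared 0 exon bases with Pdx1. The counts were made without regard to strand, so unspliced Pdx1 RNA and Plut RNA cannot be told apart in those 2 blocks. Gm27033 (ENSMUSG00000098053.1, 147280720 to 147281263, plus strand), annotated as a lincRNA of 1 exon and 544 bases, begins 4.87 kb past the end of Pdx1.

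**Figure D1:**
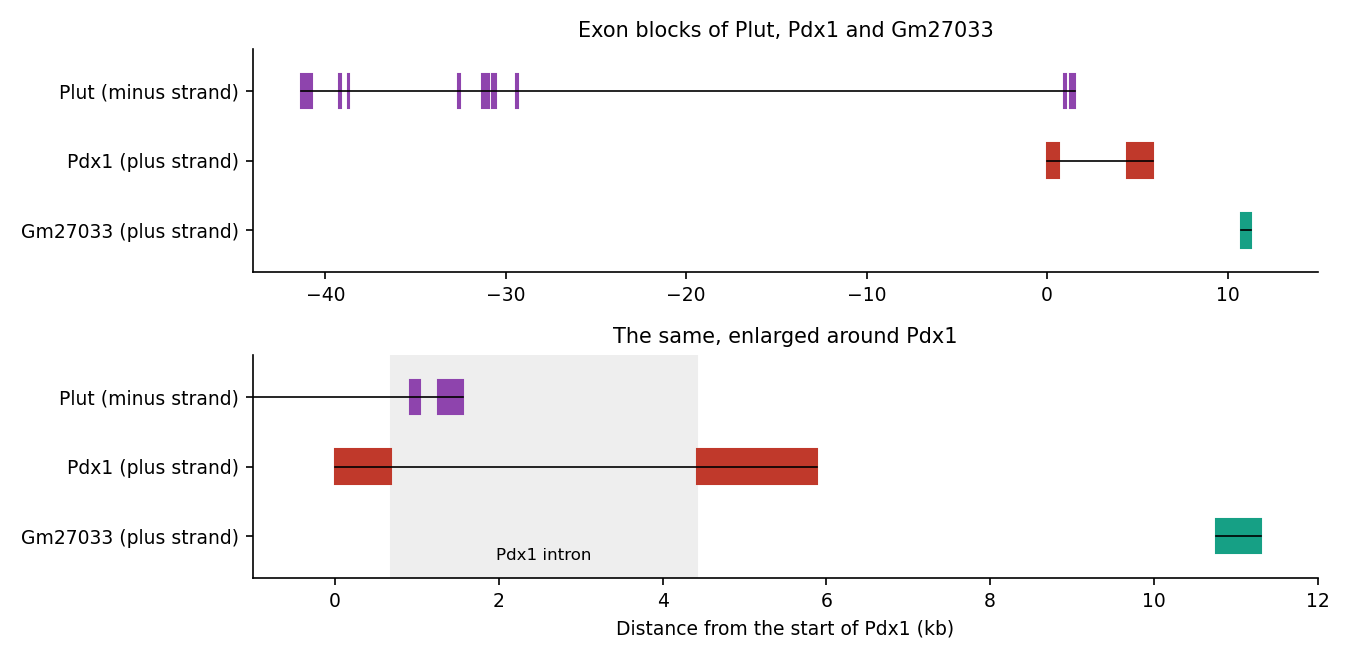
Exon blocks (boxes) of Plut, Pdx1 and Gm27033 as the deposited tables give them, against distance from the start of Pdx1 in kb, for the whole of Plut (upper panel) and enlarged around Pdx1 (lower panel). Of the 9 Plut blocks, 2 stand inside the shaded Pdx1 intron, no block overlaps a Pdx1 exon, and Gm27033 begins 10.8 kb from the start of Pdx1.

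Promoter sequences of 4 of these genes are shown. They set that of Pdx1, the targeted gene, beside those of its antisense partner, its nearest protein-coding neighbour and the nearest neighbour that liver expresses. Each is the 250 bases before the RefSeq transcription start (GRCm38.p6), written 5′ to 3′ on the gene's own strand, with capitals at the letters CCAAT or CACGTG on either strand:
Pdx1 chr5:147269847-147270096 (plus strand): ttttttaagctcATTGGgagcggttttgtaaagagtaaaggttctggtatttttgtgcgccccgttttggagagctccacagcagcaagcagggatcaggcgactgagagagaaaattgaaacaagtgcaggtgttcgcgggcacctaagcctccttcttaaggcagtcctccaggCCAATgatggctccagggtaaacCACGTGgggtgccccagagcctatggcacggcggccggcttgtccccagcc
Plut chr5:147271522-147271771 (minus strand): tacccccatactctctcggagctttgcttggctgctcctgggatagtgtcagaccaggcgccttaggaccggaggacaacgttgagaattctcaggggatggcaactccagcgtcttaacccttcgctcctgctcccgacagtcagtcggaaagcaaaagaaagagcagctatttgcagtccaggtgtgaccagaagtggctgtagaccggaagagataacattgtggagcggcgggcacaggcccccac
Cdx2 chr5:147307250-147307499 (minus strand): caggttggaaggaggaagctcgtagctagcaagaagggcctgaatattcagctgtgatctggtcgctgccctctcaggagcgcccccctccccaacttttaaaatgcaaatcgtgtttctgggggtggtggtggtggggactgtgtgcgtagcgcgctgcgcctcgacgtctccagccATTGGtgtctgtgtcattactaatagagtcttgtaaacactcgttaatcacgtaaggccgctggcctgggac
Urad chr5:147322441-147322690 (minus strand): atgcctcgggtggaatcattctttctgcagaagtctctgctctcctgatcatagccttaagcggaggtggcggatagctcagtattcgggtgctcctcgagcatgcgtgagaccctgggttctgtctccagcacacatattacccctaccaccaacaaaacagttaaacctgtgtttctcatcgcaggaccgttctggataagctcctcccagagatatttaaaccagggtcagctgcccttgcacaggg

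RefSeq held such a window for 9 of the 10 genes. The Pdx1 window had 10 CpG and 54.8% GC, against a median of 6 CpG and 52.4% GC over 32851 windows of the same length, and 138 of its bases fall in the first Pdx1 exon of the deposited tables, which begin the gene 138 bases earlier than RefSeq does. It held CCAAT at positions 13 and 177 and CACGTG at position 200, counted from its 5′ end, while 33.8% of all windows hold CCAAT and 6.02% hold CACGTG on either strand. All 250 bases of the Plut window lay inside the Pdx1 intron. TATAAA, found in 12.4% of all windows, was in none of the 9, and neither was TAATTA, found in 4.84%. GGGCGG, found in 32.7%, was in the windows of Usp12 (5 matches, 30 CpG) and Lnx2 (1 match, 27 CpG) and in none of the other 7. Gsx1, Flt3 and Polr1d held none of the letters searched. A match is a description of these letters and not a binding site.

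Libraries held 13531769 to 18063529 assigned counts with Pdx1 gRNA, 16963079 to 22008046 with control gRNA and 11824767 to 17870498 with PBS. PBS libraries 2 and 3 stood apart, in RNA tied to sex. Of Xist, made from the inactive X chromosome, they held 2.61 and 3.64 CPM (counts-per-million units, here on total counts), and the other 10 libraries held at least 692 CPM. Of Ddx3y, a gene of the Y chromosome, they held 80.8 and 70.0 CPM, and the others at most 0.187 CPM. Calls against PBS are therefore also given without those libraries. That setting leaves PBS libraries 1 and 4, the least alike of the 18 pairs within groups. Their chi-square over degrees of freedom was 177, beside 32.9 for PBS libraries 2 and 3. Whether a call lost there depends on sex, on the spread of that pair or on fewer libraries was not tested. The 10 hepatocyte markers, Alb and Apoa1 among them, summed to 59100.4 to 119687 CPM with Pdx1 gRNA, 61802 to 83586 CPM with control gRNA and 96061 to 134677 CPM with PBS. None of the 10 was called in Pdx1 gRNA against control gRNA, 2 fell in Pdx1 gRNA against PBS, and 7 fell in control gRNA against PBS (0 and 1 without PBS libraries 2 and 3). Of all genes, 0% were called in the first comparison, 22.1% in the second and 32.1% in the third (7.9 and 14% against PBS without those libraries). In such bulk tissue, fewer cells of a type and less RNA per cell cannot be told apart.

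Pdx1 RNA was found in every Pdx1 gRNA library and was at or near 0 elsewhere. Pdx1 had 1.34, 2.36, 4.07 and 13.0 CPM in Pdx1 gRNA libraries 1 to 4, against 0, 0, 0 and 0.111 CPM in control gRNA libraries and 0 CPM in each PBS library. All 4 Pdx1 gRNA libraries lay above the 8 others, and they spread among themselves: library 4 alone held 69.6% of the 368 Pdx1 counts of its group. CPM here and below are on library sizes scaled by TMM, a factor that evens out composition.

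A two-sided exact permutation test on Pdx1 CPM gave p = 0.0286 for Pdx1 gRNA set against either other group, the smallest that 70 assignments allow, and 0.0429 after adjustment over 3 comparisons. In edgeR's quasi-likelihood test over 15219 genes, Pdx1 rose against PBS (log2 fold change 9.48 ± 1.48 SE, adjusted p = 0.00255), although it passed the filter only through the group where it is high, so this call adds nothing to the counts. Since PBS had 0 counts, the fold is a bound from summed counts over summed library sizes, with a floor of 3 counts for the PBS group: at least 95.0-fold with all libraries, at least 41.2-fold without Pdx1 gRNA library 4 and at least 57.2-fold without PBS libraries 2 and 3. Without those PBS libraries the adjusted p was 0.0229, and the exact permutation test over 15 assignments, which cannot pass 0.05, gave p = 0.267. Against control gRNA the log2 fold change was 7.42 ± 1.11 (SE) with an adjusted p of 0.444. Pdx1 ranked first by rise among all 15219 genes, a rank that rests on 2 control gRNA counts and carries the same limit of the filter. DESeq2 called Pdx1 in that comparison (7.77, adjusted p = 0.00335), as 1 of 14 genes or 0.0924% of those it tested, while edgeR called 0 genes of 15219 (918 at an unadjusted p under 0.05). DESeq2 was run after the same filter, so its call of Pdx1 adds nothing to the counts either.

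Set per length, the level of Pdx1 could be placed among the genes of the same liver. Pdx1 had 1.51, 2.51, 3.91 and 17.2 TPM (transcripts-per-million units, which take account of transcript length) in Pdx1 gRNA libraries 1 to 4. These levels lay above 18.2, 29.0, 39.3 and 63.6% of the genes tested. Among 8 transcription factor genes of the liver, Onecut1, a hepatocyte factor that also acts upstream of Pdx1 in the embryonic pancreas, had the lowest level in each library, with 6.73, 2.43, 11.6 and 8.45 TPM. Pdx1 exceeded Onecut1 in libraries 2 and 4, and in library 4 also exceeded Foxa1 at 13.5 TPM. Hnf4a, a central regulator of hepatocyte genes, had 278, 270, 300 and 332 TPM in the same libraries. Hnf4a exceeded Pdx1 by 184-fold in library 1 and by 19.3-fold in library 4.

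**Figure D2:**
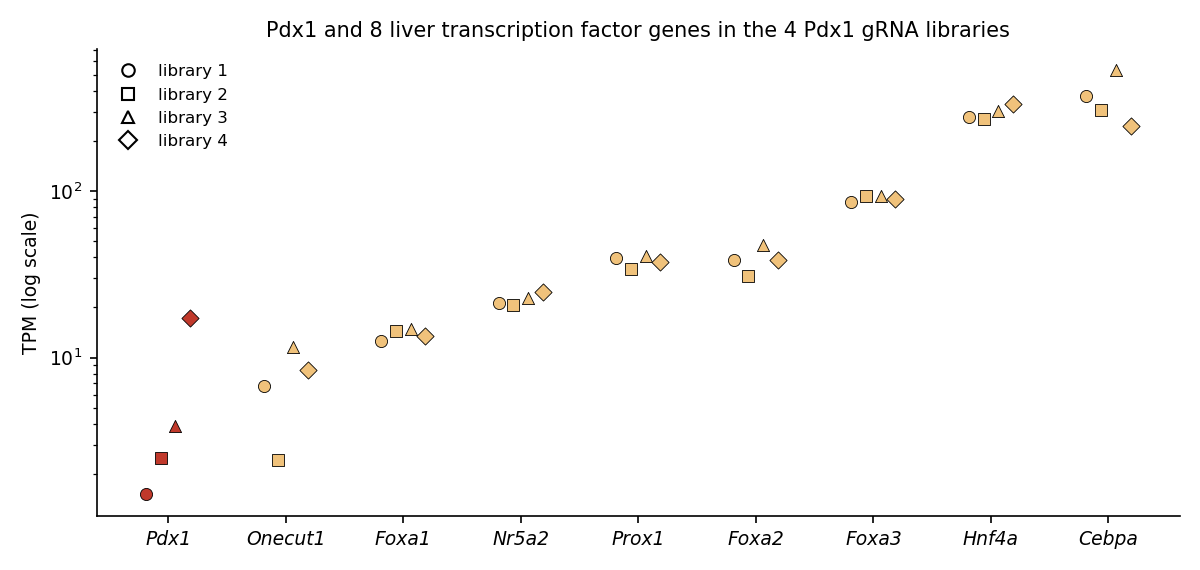
Level of Pdx1 and of 8 liver transcription factor genes in TPM (log axis) in the 4 Pdx1 gRNA libraries, 1 symbol shape per library. Pdx1 spans 1.51 to 17.2 TPM, while Onecut1, the lowest of the other genes, spans 2.43 to 11.6 TPM.

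Plut and Gm27033, the transcripts beside Pdx1, were counted almost only in Pdx1 gRNA libraries. The Plut counts of Pdx1 gRNA libraries 1 to 4 were 5, 3, 0 and 9, beside 0 in each control gRNA library and 1, 0, 0 and 0 in PBS libraries. For Gm27033 the counts of Pdx1 gRNA libraries 1 to 4 were 1, 0, 5 and 9, beside 0 in all 8 other libraries. Each was highest in library 4, where Pdx1 was also highest, and each was missing from 1 Pdx1 gRNA library, so groups overlapped at 0. Both stayed below the filter on low counts.

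Over the group, Plut averaged 0.234 ± 0.187 CPM with Pdx1 gRNA and 0 CPM with control gRNA (SD, n = 4 each). Its summed counts over summed library sizes were at least 7.59-fold higher with Pdx1 gRNA over a floor of 3 counts for the control gRNA group, and at least 5.10-fold without Pdx1 gRNA library 4. Against PBS, with 1 Plut count, the ratio of summed counts was 13.2 with a 95% counting interval of 2.06 to 550, and 7.92 (1.24 to 331) without PBS libraries 2 and 3. Gm27033 averaged 0.221 ± 0.229 CPM with Pdx1 gRNA and 0 CPM in the other groups (SD, n = 4 each). By summed counts it was at least 6.70-fold higher than with control gRNA and at least 3.87-fold higher than with PBS. Without Pdx1 gRNA library 4 these bounds were 3.82 and 2.21, and without PBS libraries 2 and 3 the second was 2.33. A two-sided exact permutation test on CPM came to p = 0.143 for each gene against each other group, and 0.214 after adjustment over 3 comparisons. Where the other group was at 0, the test could give no p below 0.143, since 1 Pdx1 gRNA library was also at 0. An edgeR fit without the filter gave unadjusted p values of 0.000833 for Plut (log2 difference 5.11) and 0.00309 for Gm27033 (4.99) against control gRNA. Their adjusted p values there were 0.807 for both, a value that Pdx1 shared in that fit. Against PBS the adjusted p values of that edgeR fit were 0.111 for Plut and 0.0823 for Gm27033. At this depth neither rise passed the adjusted threshold, and intervals and floors cover counting error only.

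The share of these RNAs relative to Pdx1 ranged from 0% upward over the Pdx1 gRNA libraries, with wide intervals. Plut made up 16.1% of Plut and Pdx1 counts in library 1 (95% exact binomial interval 5.45 to 33.7%), 8.57% in library 2 (1.80 to 23.1%), 0% in library 3 (up to 6.60%) and 3.40% in library 4 (1.56 to 6.35%). Gm27033 made up 3.70% of Gm27033 and Pdx1 counts in library 1 (0.0937 to 19.0%), 0% in library 2 (up to 10.9%), 8.47% in library 3 (2.81 to 18.7%) and 3.40% in library 4 (1.56 to 6.35%). When libraries are ordered by either share, the intervals of neighbours overlap. Per kb of exon, library 4 held 119 counts of Pdx1, 16.5 of Gm27033 and 4.35 of Plut.

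**Figure D3:**
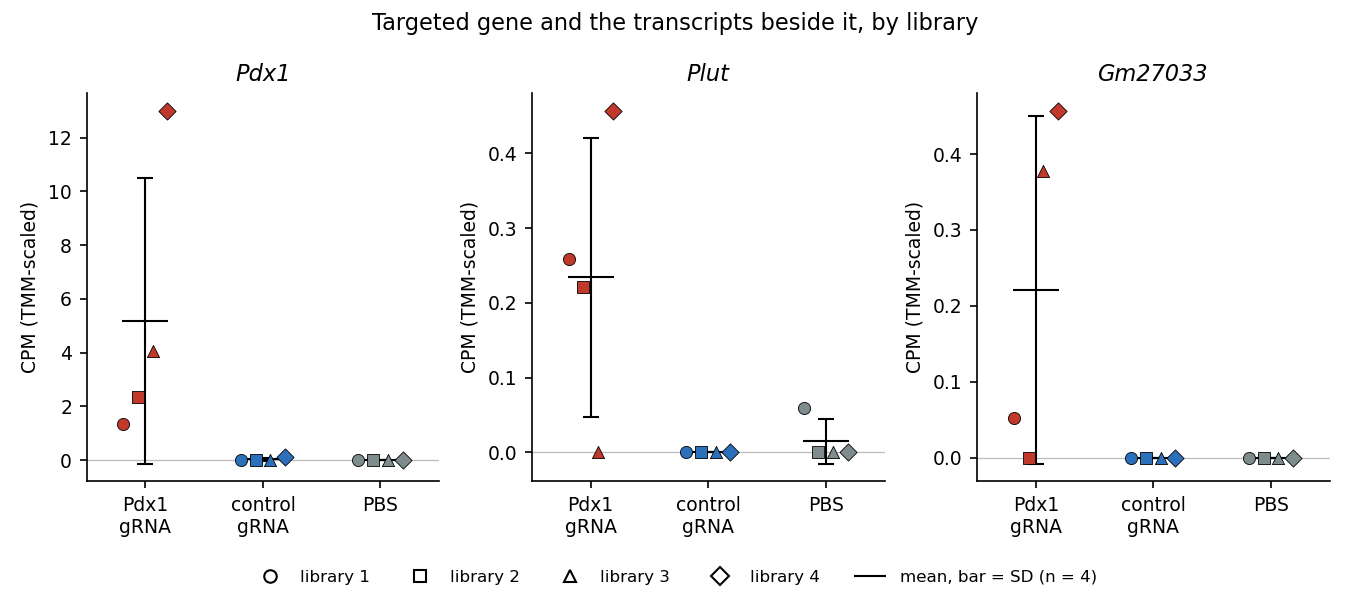
CPM on TMM-scaled library sizes of Pdx1, Plut and Gm27033 in each library, by group, with 1 symbol shape per library number and black bars for the mean ± SD of 4 libraries. Pdx1 reaches 13.0 CPM in Pdx1 gRNA library 4, Plut and Gm27033 stay at or under 0.457 CPM in every library, and the other groups hold at most 0.111 CPM of any of the 3.

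The ParaHox partners of Pdx1 stayed at the floor. Cdx2 (ENSMUSG00000029646.3, 147300805 to 147307270, minus strand), the intestinal homeobox gene 25.0 kb past Pdx1, had 0 counts in each Pdx1 gRNA and control gRNA library and 1 count in PBS library 1. Gsx1 (ENSMUSG00000053129.5, 147188696 to 147190947, plus strand), 79.0 kb on the other side, had 0 counts in all 12 libraries. A count of 0 over the 4 Pdx1 gRNA libraries allows up to 0.0455 CPM, so any induction of these genes under that level was not detectable. Of 11 markers of intestinal epithelium 3 passed the filter (Fabp2, Lgals4 and Apoa4). In Pdx1 gRNA against control gRNA 0 were called, beside 0% of all genes. Against PBS 1 of the 3 was called with Pdx1 gRNA, beside 22.1% of all genes, and 1 with control gRNA, beside 32.1%. Fabp2 and Lgals4 were not called against PBS (-0.47 and -0.41 with Pdx1 gRNA, -0.22 and -0.02 with control gRNA). Apoa4, an apolipoprotein gene that liver also expresses, rose against PBS with Pdx1 gRNA (1.84 ± 0.42 SE, edgeR adjusted p = 0.00932) and with control gRNA (2.02 ± 0.42 SE, edgeR adjusted p = 0.00403). Its adjusted p values without PBS libraries 2 and 3 were 0.0889 and 0.0552.

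Genes that Pdx1 drives in beta cells were also looked at, as were pancreatic markers. Of 16 such target genes, 5 were without a count in all 12 libraries, and only 2 passed the filter. Among them was Slc2a2, the glucose transporter GLUT2, which hepatocytes also use. Slc2a2 averaged 267 ± 58.7 CPM with Pdx1 gRNA and 235 ± 61.7 CPM with control gRNA (SD, n = 4 each), a log2 difference of 0.19 ± 0.27 (SE, edgeR adjusted p = 0.928). This difference did not pass the test, and the groups overlapped. The insulin genes Ins1 and Ins2 had 0 counts in all 12 libraries. The 13 markers of pancreatic acinar cells, the enzyme-making cells of that gland, summed to at most 0.621 CPM in a Pdx1 gRNA library, 0.373 CPM in a control gRNA library and 0.778 CPM in a PBS library, with 8 of the 13 at 0 throughout.

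Of the 10 genes, 6 passed the filter on low counts and entered the edgeR test, Pdx1 only through the Pdx1 gRNA group. In Pdx1 gRNA against control gRNA, 0 of the 6 were called, beside 0% of all genes, and in 1 of the 6, Pdx1, the groups did not overlap, beside 6.65% of all genes. In Pdx1 gRNA against PBS, 2 rose (Polr1d, and Pdx1 with the limit of its filter), beside 22.1% of all genes called, and groups did not overlap in 1 (Pdx1), beside 21.4%. In control gRNA against PBS, 1 rose (Polr1d) and 1 fell (Urad), beside 32.1% called, and groups did not overlap in 2 (Flt3 and Polr1d), beside 28.8%. Without PBS libraries 2 and 3, 1 of the 6 was called in Pdx1 gRNA against PBS (Pdx1), beside 7.9% of all genes, and 2 in control gRNA against PBS (Polr1d and Urad), beside 14% of all genes. Apart from Pdx1 itself, the shares of the full set of libraries lie near those of all genes. The 3 comparisons share libraries.

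Urad was the nearest neighbour with a clear level in every liver. Urad (ENSMUSG00000075543.4, 147314984 to 147322440, minus strand, 39.1 kb past Pdx1) encodes a decarboxylase that takes part in turning uric acid into allantoin, a step of purine breakdown in mouse hepatocytes. It had 19.9, 13.8, 34.6 and 14.0 CPM in Pdx1 gRNA libraries 1 to 4, against 10.6, 15.3, 10.5 and 11.5 CPM in control gRNA libraries and 15.3, 38.7, 30.2 and 49.2 CPM in PBS libraries. Only Pdx1 gRNA libraries 1 and 3 exceeded every control gRNA library, and PBS library 1 lay inside the range of the virus groups.

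Urad fell in control gRNA against PBS by 1.48 ± 0.35 on the log2 scale (SE, edgeR adjusted p = 0.00808). The call also held without PBS libraries 2 and 3 (-1.45, adjusted p = 0.0488). Pdx1 gRNA against control gRNA gave 0.78 ± 0.35 (SE, edgeR adjusted p = 0.809), and against PBS -0.70 ± 0.35 (SE, edgeR adjusted p = 0.168), neither called. Pdx1 gRNA against PBS was called for Urad without PBS library 1 (-0.94, adjusted p = 0.0311) and without Pdx1 gRNA library 3 (-1.07, adjusted p = 0.0415).

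Of 8 genes from purine nucleotides to allantoin, 7 were in the tables and 6 were tested. In control gRNA against PBS 4 fell, beside 32.1% of all genes called, with a median of -1.12 over the 6 beside -0.01 over all genes. Uox, the urate oxidase that acts before Urad, averaged 722 ± 181 CPM with control gRNA and 2327 ± 697 CPM with PBS (SD, n = 4 each), a log2 difference of -1.69. Gda, guanine deaminase, differed by -1.23 and Xdh, xanthine dehydrogenase, by -1.02, and for all 3 every control gRNA library was below every PBS library. Without PBS libraries 2 and 3, Uox and Urad of these 4 were called, beside 14% of all genes. In Pdx1 gRNA against PBS only Uox of the 6 fell (-1.13, edgeR adjusted p = 0.0427), beside 22.1% of all genes called. Without those libraries 0 of the 6 were called there, beside 7.9%. In Pdx1 gRNA against control gRNA 0 of the 6 were called (median 0.42), beside 0% of all genes. The hepatocyte markers moved with these genes, with a median of -1.14 over 10 markers in control gRNA against PBS, and their part in the result was not tested.

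Flt3, a receptor tyrosine kinase of blood progenitors and dendritic cells, had the lowest level among the expressed neighbours. Flt3 (ENSMUSG00000042817.15, 147330741 to 147400489, minus strand, 54.9 kb past Pdx1) had 0.672, 0.810, 0.679 and 2.03 CPM in Pdx1 gRNA libraries 1 to 4, against 1.42, 1.98, 2.23 and 1.60 CPM in control gRNA libraries and 0.838, 0.190, 0.102 and 1.14 CPM in PBS libraries. Pdx1 gRNA library 4 alone reached the control gRNA range, and PBS libraries 2 and 3 were the lowest of all 12. Every control gRNA library exceeded every PBS library, yet the log2 difference of 1.58 ± 0.57 missed the threshold (SE, edgeR adjusted p = 0.0505). Without PBS libraries 2 and 3 that difference was 0.84 (adjusted p = 0.280), and under 7 of 19 other settings it was called.

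Pdx1 gRNA against control gRNA gave -0.76 ± 0.53 for Flt3 (SE, edgeR adjusted p = 0.858), and -1.32 without Pdx1 gRNA library 4. Against PBS it gave 0.81 ± 0.58 (SE, edgeR adjusted p = 0.340), and 0.10 without PBS libraries 2 and 3. The 12 markers of dendritic and progenitor cells, among them Irf8, Batf3 and Kit, all had counts. They summed to 43.8 to 70.1 CPM with Pdx1 gRNA, 64.2 to 80.8 CPM with control gRNA and 35.4 to 71.7 CPM with PBS. Of these 12, 1 rose in control gRNA against PBS, beside 32.1% of all genes called. It was the dendritic lectin gene Cd209a (2.10 ± 0.69 SE, edgeR adjusted p = 0.0350, not called without PBS libraries 2 and 3). In the other comparisons 0 of the 12 were called. The shares of all genes there were 0% in Pdx1 gRNA against control gRNA and 22.1% in Pdx1 gRNA against PBS. The part of these markers in the level of Flt3 was not tested.

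Polr1d, which encodes a subunit shared by RNA polymerases I and III, was higher in virus than in PBS livers whichever guide the virus carried. Polr1d (ENSMUSG00000029642.11, 147077050 to 147111597, plus strand, 158 kb 5′ of Pdx1) had 47.9, 59.8, 63.3 and 74.9 CPM in Pdx1 gRNA libraries 1 to 4, against 68.3, 62.7, 62.9 and 55.9 CPM in control gRNA libraries and 34.9, 41.0, 48.2 and 42.2 CPM in PBS libraries. Every control gRNA library exceeded every PBS library, and Pdx1 gRNA library 1 fell just inside the PBS range. Polr1d rose with control gRNA against PBS (0.59 ± 0.15 SE, edgeR adjusted p = 0.0106) and with Pdx1 gRNA against PBS (0.56 ± 0.15 SE, edgeR adjusted p = 0.0183).

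The rise with control gRNA was called under all 19 other settings. That with Pdx1 gRNA was lost without PBS libraries 2 and 3 (0.66, adjusted p = 0.0610) and without Pdx1 gRNA library 4 (0.44, adjusted p = 0.0718). Pdx1 gRNA against control gRNA gave -0.02 ± 0.15 (SE, edgeR adjusted p = 0.985). Of 24 genes of RNA polymerases I and III, all tested, 12 rose and 1 fell in Pdx1 gRNA against PBS, beside 22.1% of all genes called. In control gRNA against PBS 13 rose and 2 fell, beside 32.1%. Without PBS libraries 2 and 3 these counts were 5 and 0, and 5 and 1, beside 7.9 and 14% of all genes called. With all libraries the medians were 0.55 in both, beside -0.06 and -0.01 over all genes. In Pdx1 gRNA against control gRNA 0 of 24 were called (median 0.05), beside 0% of all genes. Polr2e, a subunit common to the nuclear RNA polymerases, averaged 51.6 ± 5.24 CPM with Pdx1 gRNA, 56.6 ± 5.30 CPM with control gRNA and 29.6 ± 2.00 CPM with PBS (SD, n = 4 each), with no overlap between either virus group and PBS. It was also called in both without PBS libraries 2 and 3 (0.74, adjusted p = 0.0230, and 0.86, adjusted p = 0.0108).

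Lnx2 starts back to back with Polr1d but had its own pattern. It encodes a ubiquitin ligase that binds Numb, an inhibitor of Notch signalling. Lnx2 (ENSMUSG00000016520.7, 147016655 to 147076586, minus strand) had 16.4, 26.7, 18.3 and 28.1 CPM in Pdx1 gRNA libraries 1 to 4, against 22.1, 18.8, 27.1 and 24.6 CPM in control gRNA libraries and 12.5, 25.3, 28.1 and 34.8 CPM in PBS libraries. The 3 groups overlapped throughout. Its log2 differences were -0.05 ± 0.27 in Pdx1 gRNA against control gRNA, -0.17 ± 0.27 in Pdx1 gRNA against PBS and -0.12 ± 0.27 in control gRNA against PBS (SE), the last near 0 with the opposite sign under upper-quartile scaling (0.0054). The differences from PBS without PBS libraries 2 and 3 were -0.09 ± 0.36 and -0.06 ± 0.36 (SE).

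Usp12, the farthest of the 10 at 475 kb 5′ of Pdx1, encodes a deubiquitinase that works with Wdr48. Usp12 (ENSMUSG00000029640.17, 146734809 to 146795006, minus strand) had 29.2, 32.2, 31.7 and 70.2 CPM in Pdx1 gRNA libraries 1 to 4, against 35.7, 23.8, 41.6 and 24.7 CPM in control gRNA libraries and 21.2, 45.2, 38.5 and 53.2 CPM in PBS libraries. Pdx1 gRNA library 4 was the highest of all 12, and the other 3 lay inside the range of both other groups. Its log2 difference in Pdx1 gRNA against control gRNA was 0.38 ± 0.33 (SE, edgeR adjusted p = 0.883) and came to -0.02 without library 4. Pdx1 gRNA against PBS gave 0.05 ± 0.33 and control gRNA against PBS -0.33 ± 0.33 (SE), neither called, and without PBS libraries 2 and 3 they were 0.13 ± 0.44 and -0.27 ± 0.43 (SE). Of 6 tested genes of the Usp12 complex and its relatives, 0 were called in Pdx1 gRNA against control gRNA, beside 0% of all genes. Against PBS 1 of the 6, Phlpp1, fell with Pdx1 gRNA (-0.91) and with control gRNA (-1.08), beside 22.1 and 32.1% of all genes called. Without PBS libraries 2 and 3 Phlpp1 was called only with control gRNA, beside 14% of all genes.

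**Figure D4:**
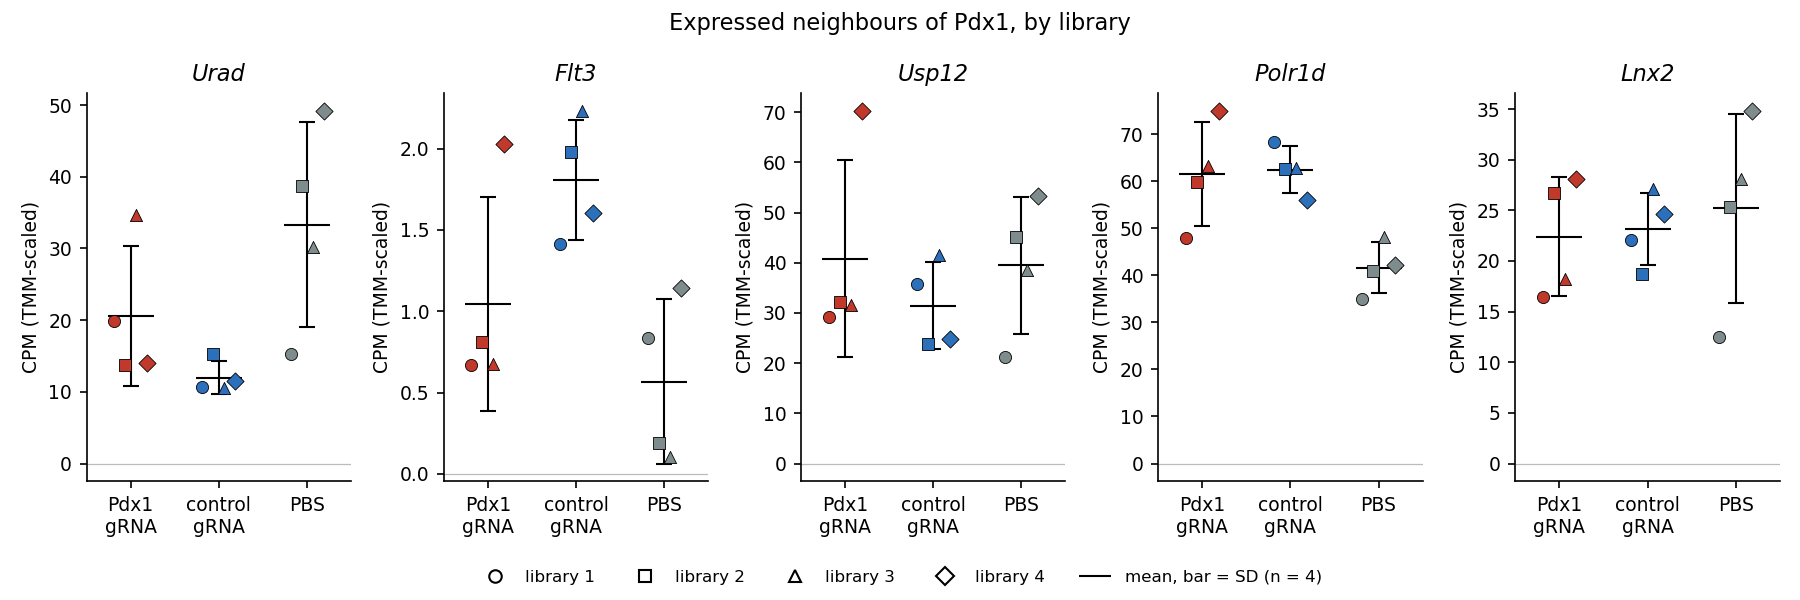
CPM on TMM-scaled library sizes of the 5 expressed neighbours in each library, by group, with 1 symbol shape per library number and black bars for the mean ± SD of 4 libraries. Usp12 and Flt3 have a lone high Pdx1 gRNA library (library 4, 70.2 and 2.03 CPM), while for Polr1d all control gRNA libraries stand above all PBS libraries.

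Library 4 of the Pdx1 gRNA group recurred as the highest of its group. Of the 8 listed genes with any count in that group, 7 were highest in library 4, all but Urad. Library 4 was highest for 33.6% of all tested genes, against 23.0, 17.5 and 25.9% for libraries 1 to 3. In the same library the hepatocyte markers summed to 59100.4 CPM, the lowest of the 12 libraries, beside 92021, 119687 and 118018 CPM in libraries 1 to 3. The part of this difference in the levels of the 7 genes was not tested.

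By level per length, the genes kept a broad order in the Pdx1 gRNA livers. Urad averaged 62.5 ± 22.5 TPM, Polr1d 49.2 ± 14.4 TPM, Usp12 22.1 ± 14.1 TPM and Lnx2 12.0 ± 4.39 TPM (SD, n = 4 each). Pdx1 followed with 6.28 ± 7.33 TPM, then Gm27033 with 1.02 ± 1.11 TPM, Flt3 with 0.433 ± 0.338 TPM and Plut with 0.295 ± 0.259 TPM (SD, n = 4 each). Each gene's range over the 4 libraries overlapped that of the next in this order. In control gRNA livers Polr1d led with 51.1 ± 9.74 TPM and Urad followed with 38.2 ± 3.47 TPM, whereas in PBS livers Urad led with 90.8 ± 44.3 TPM and Polr1d followed with 28.0 ± 4.63 TPM (SD, n = 4 each). In both of these groups the ranges of Urad and Polr1d did not overlap.

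Within 500 kb of Pdx1, 13 of the 31 genes were tested and 6 had no count. Of the 13, 0 were called in Pdx1 gRNA against control gRNA (0% of all genes called). In Pdx1 gRNA against PBS 3 rose and 1 fell (22.1%), and in control gRNA against PBS 2 rose and 2 fell (32.1%). Besides the listed genes, these calls were Rpl21, a ribosomal protein gene that rose (0.87 ± 0.20 SE with Pdx1 gRNA and 1.06 ± 0.20 SE with control gRNA, each against PBS), and Flt1, a receptor for vascular growth factors that fell (-1.02 ± 0.28 and -0.92 ± 0.28 SE). Without PBS libraries 2 and 3 the calls were 2 in Pdx1 gRNA against PBS (Pdx1 and Flt1), beside 7.9% of all genes, and 4 in control gRNA against PBS, beside 14%. There Rpl21 was not called with Pdx1 gRNA (0.68, adjusted p = 0.112) and was called with control gRNA (0.86, adjusted p = 0.0479). Rpl21 has near-identical copies in the genome, so its count is uncertain. Among the 20 tested genes within 1 Mb, the largest rise against control gRNA after that of Pdx1 was Urad at 0.78. Pdx1 passed the filter only through the Pdx1 gRNA group, and its difference rests on 2 control gRNA counts, so this order is a description. Plut and Gm27033, below the filter, had log2 differences of 5.11 and 4.99 there in the edgeR fit without it.

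**Figure D5:**
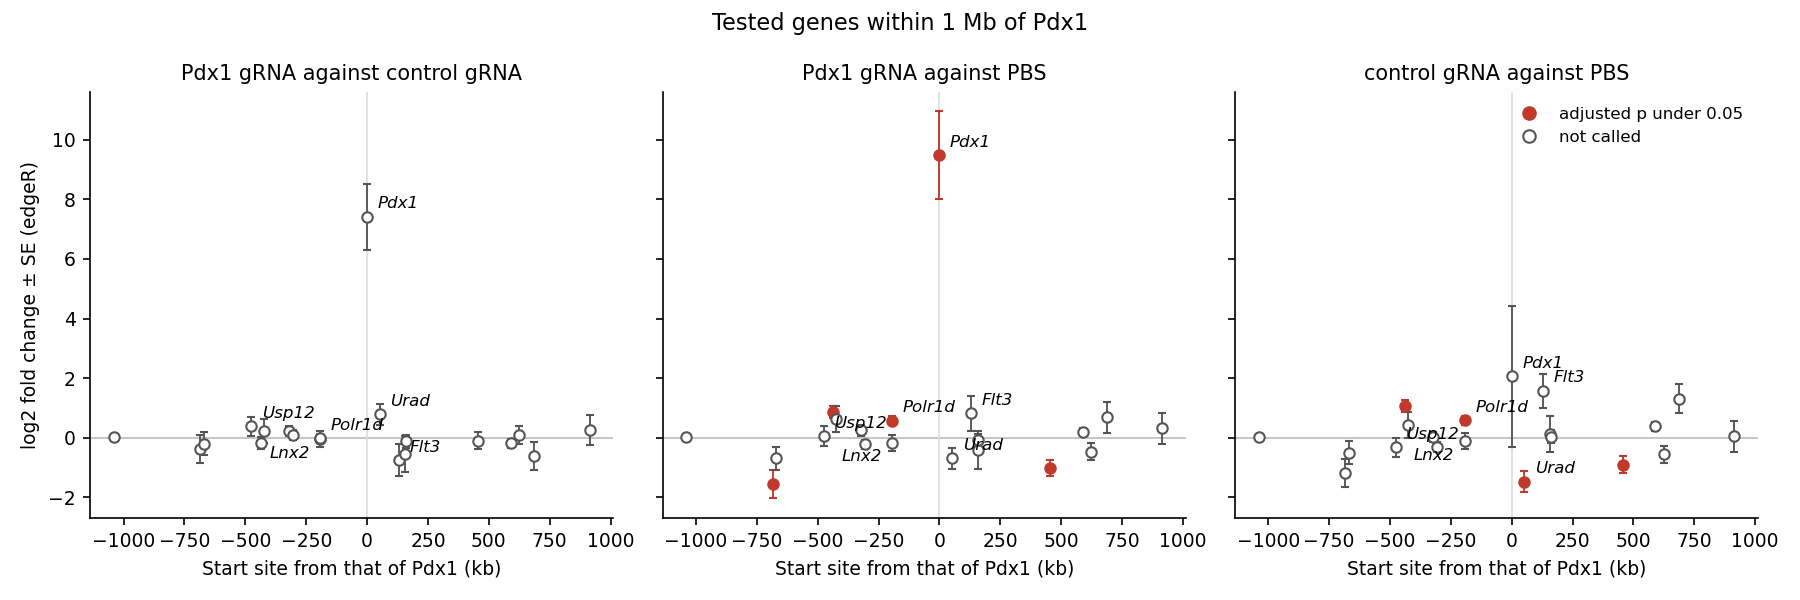
Log2 fold change ± SE (edgeR) of the 20 tested genes within 1 Mb of Pdx1, against the distance of their start site from that of Pdx1 in kb, for the 3 comparisons, with filled red points for an adjusted p under 0.05. Pdx1 stands at 7.42 (not called) in Pdx1 gRNA against control gRNA and at 9.48 in Pdx1 gRNA against PBS, and Polr1d is called against PBS in both virus groups.

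Genes whose levels followed those of the listed genes most closely over the 12 libraries were ranked by Pearson's r of log2(CPM + 0.1) among 13306 genes, as a description. For Pdx1 these were Snrnp35 (r = 0.960), which also lies on chromosome 5, Lonrf1 (0.936) and Irf2bp1 (0.932), an order that rests on 4 libraries with Pdx1 against 8 at or near 0. Snrnp35 averaged 9.50 ± 0.788 CPM with Pdx1 gRNA, 6.64 ± 0.398 CPM with control gRNA and 6.43 ± 0.220 CPM with PBS (SD, n = 4 each). For Urad they were Gzf1 (0.962), Dgat2 (0.942) and Maco1 (0.935), and for Flt3 Cln6 (0.954), Ncf4 (0.946) and Dmpk (0.945). Libraries share group, depth and composition, so r measures these as well.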

How the data were processed

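Polyadenylated liver RNA was measured in 12 libraries, 3 groups of 4. The deposited values are whole-number fragment counts per gene, and they are not normalized. Per the file headers, featureCounts 1.4.6-p4 summed exons of GENCODE M13 by gene from paired ends that both mapped, without strand, and with no option to count a fragment for several genes. Trimmomatic 0.32, STAR 2.4.1a, DESeq2 1.22.0 and R 3.5.1, with GRCm38 and mm10, are named in the submitters' processing notes. Each file has 50600 genes, and gene IDs gave a symbol for 50376.

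A single edgeR 4.0.16 model held all 12 libraries (filterByExpr with a minimum count of 10, TMM, robust quasi-likelihood test) in R 4.3.3. Adjustment (Benjamini-Hochberg) ran over 15219 genes, with calls under 0.05. CPM are on TMM-scaled sizes unless said, and TPM use the deposited exon lengths. Folds against 0 counts use a floor of 3 counts over the group. Intervals of shares are Clopper-Pearson at 95%. Promoter windows are RefSeq's. The edgeR fit was tested on simulated counts, in which no gene near 0 counts was changed.

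The members, gene lists and tests were chosen with earlier results of these data known. Named genes are the 10, tested genes within 500 kb, the up to 4 smallest p in each list, the liver factors, the 3 genes most like Pdx1, Urad and Flt3, and Ep300, and where a rule names many only those a result turns on are given. A few of these genes are left unreported here. 1 listed purine gene was not analysed here. As alternatives, the fit was repeated with upper-quartile factors, DESeq2 size factors, no filter, DESeq2 1.42.0 in place of edgeR, only the 8 libraries compared, the replicate block, PBS libraries 2 and 3 left out, and each library left out in turn. The folds from summed counts with libraries left out, and the permutation test without PBS libraries 2 and 3, were added after seeing the data. No library copied another: chi-square over degrees of freedom was 19.3 to 177 in the 18 pairs within groups, the most between PBS libraries 1 and 4.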

Additional observations from a re-analysis of the deposited data

Results flagged for a closer look

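In 21 groups of 4 libraries, 1 group in about 20 would be marked by chance for holding a library far from the other 3. There were 5 such values. The Usp12 level of Pdx1 gRNA library 4 was 70.2 CPM, while the other 3 libraries had 29.2 to 32.2 CPM. The Flt3 level of the same library was 2.03 CPM, while the others had 0.672 to 0.810 CPM. Pdx1 in control gRNA library 4 was 0.111 CPM, which is 2 counts beside 3 libraries at 0. Plut in PBS library 1 was 0.0599 CPM and Cdx2 in the same library was 0.0599 CPM, each 1 count beside 3 libraries at 0. Any count beside 3 libraries at 0 is marked, so the rate of 1 in about 20 does not apply to these last 3 values.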

How the results depend on the processing

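Of the log2 differences under alternatives, 317 kept their direction and their side of the threshold, 10 newly passed it, 2 no longer did and 12 changed sign. DESeq2's Wald test called 1 of the 10 genes, and 1 within 500 kb, in Pdx1 gRNA against control gRNA (Pdx1, 7.77, with the limit of its filter). It called 0.0924% of all genes it tested there. Without PBS replicates 2 and 3, Pdx1 gRNA against PBS gave 1 called of the 10 and 2 within 500 kb, beside 7.9% of all genes. With each library left out in turn, Pdx1 gRNA against PBS gave from 1 to 3 of the 10. Control gRNA against PBS then gave from 3 to 7 within 500 kb (the most without PBS replicate 1). The share of all genes called in each of those fits is not given here, so these counts cannot be read as particular to the locus. With all libraries that share was 22.1% in Pdx1 gRNA against PBS and 32.1% in control gRNA against PBS. Signs changed as follows. With 1 library left out, Usp12 ran from -0.0199 to 0.56 and Lnx2 from -0.18 to 0.0771 and Polr1d from -0.13 to 0.0816 in Pdx1 gRNA against control gRNA, Usp12 from -0.37 to 0.23 and Lnx2 from -0.40 to 0.0323 in Pdx1 gRNA against PBS, and Lnx2 from -0.35 to 0.0780 in control gRNA against PBS, where upper-quartile factors gave 0.0054. The Pdx1 CPM difference then ran from 2.56 to 6.44 against control gRNA and from 2.59 to 6.47 against PBS, with an exact permutation p = 0.0857 (3 of 35 assignments) for each control gRNA or PBS library left out and p = 0.0286 for each Pdx1 gRNA library left out. Without PBS replicates 2 and 3 its exact permutation p was 0.267, of 15 assignments. Upper-quartile factors moved the share of higher calls in control gRNA against PBS to 61.8%, against 50.9%, and the median of all genes by 0.10.

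With the replicate block, Flt3 was called in control gRNA against PBS (1.81), the block changing no other call of the 10 genes. Numbers did not pair libraries: 3 of 12 same-number pairs correlated above 0.1, and 2 of 12 libraries correlated best with their own number. Depth limits Plut, Gm27033, Cdx2 and Gsx1, where 3 counts over a group are 0.0340 to 0.0588 CPM.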

Other observations

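Factors that act upstream of Pdx1 in pancreas and partners of the Pdx1 protein were measured as well. The counts below stand beside 0% of all genes called in Pdx1 gRNA against control gRNA. Against PBS the shares were 22.1% with Pdx1 gRNA and 32.1% with control gRNA, or 7.9 and 14% without PBS libraries 2 and 3. Of 12 upstream factors 10 were tested, and 0 were called in Pdx1 gRNA against control gRNA, 1 rose and 1 fell in Pdx1 gRNA against PBS (also without PBS libraries 2 and 3), and 2 rose and 5 fell in control gRNA against PBS (1 and 2 without those libraries). Onecut1 averaged 12.8 CPM with Pdx1 gRNA, 5.99 CPM with control gRNA and 21.3 CPM with PBS. It fell in control gRNA against PBS (-1.82 ± 0.45 SE, edgeR adjusted p = 0.00908, and 0.0394 without PBS libraries 2 and 3), with every control gRNA library below every PBS library. Of 10 tested partners, Meis2 among them, 0 were called in Pdx1 gRNA against control gRNA, 1 rose and 1 fell in Pdx1 gRNA against PBS, and 3 fell in control gRNA against PBS (1 without those PBS libraries). Ep300, the mouse gene of the acetyltransferase in the fusion, was 1 of those 3 (-0.46 ± 0.16 SE, edgeR adjusted p = 0.0396, and 0.221 without those libraries), with 46.5 ± 9.56 CPM with Pdx1 gRNA, 39.0 ± 2.50 CPM with control gRNA and 53.8 ± 8.28 CPM with PBS (SD, n = 4 each). The part of the transgene in these counts was not tested.

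Among 11 genes of Flt3 and related receptors and ligands, 3 fell in Pdx1 gRNA against PBS and 3 in control gRNA against PBS (1 and 2 without PBS libraries 2 and 3). Of 7 tested genes around Lnx2 and Numb, 1 fell in Pdx1 gRNA against PBS, and 1 rose and 2 fell in control gRNA against PBS (without those PBS libraries 1 fell in each). In each of these lists 0 were called in Pdx1 gRNA against control gRNA.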
